A study of Homo sapiens with 72 samples.

Results

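The mRNAs of the MYC, MAX and MXD network were followed in A375 cells, an established human melanoma line, under knockdown of CTU2, withdrawal of glutamine, and block of transcription with or without block of translation. The members were the rows of the count table named MYC, MAX, MXD1, MXD3, MXD4, MXI1, MNT, MGA and MLX, which were 9 of 44659 gene names, and all 9 passed the filter on low counts in every fit. Cells had been transfected for 42 h either with a pool of siRNAs against CTU2 (siCTU2) or with the control siRNA siGL2, or had spent 18 h in a medium that lacked glutamine (mQ) or contained it (pQ). In each of these 4 states, triptolide (25 µM), which blocks transcription, was given alone (T arm) or with the translation blocker cycloheximide at 100 µg/ml (TCHX arm). In the study's protocol cycloheximide was added shortly before triptolide. Cells were harvested at 0, 3 and 5 h. Cytoplasmic RNA was then counted with QuantSeq, which reads the 3′ end of polyadenylated RNA, in 72 libraries that formed 24 groups of 3 replicates. The labels did not say that replicates came from separate cultures, so that p-values measure the spread between these libraries. Because whole cell populations were profiled, fewer cells and less RNA per cell cannot be told apart.

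MYC is a transcription factor that binds DNA only as a pair with MAX and activates genes of growth and ribosome production. The MXD proteins (MXD1, MXD3, MXD4 and MXI1) and MNT pair with MAX in its place and recruit SIN3 repressor complexes to the same E-box sequences, and MGA also pairs with MAX and represses. MLX is a MAX-like partner of MondoA (encoded by MLXIP), which responds to glucose-derived metabolites and drives TXNIP and ARRDC4. The MYC mRNA and protein are both short-lived, and the stability of the mRNA is known to depend on elements in its coding region and 3′ end.

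Libraries held between 5987692 and 15534331 counts. CTU2 itself reached 2.95, 1.01 and 1.32 CPM (counts relative to the library total) in siCTU2 cells and 21.14, 22.03 and 24.2 CPM in siGL2 cells (0 h, T arm), a 13.1-fold difference (log2 fold change -3.71, SE 0.28, adjusted p = 9.16e-09 by edgeR). There were 3 libraries of replicate 3 that stood apart (pQ TCHX at 0 h, mQ T at 5 h, and the library labelled siCTU2 TCHX at 5 h, whose CTU2 level of 10.38 CPM went against its label). They held counts for 19896 to 20364 genes, as compared to 15507 to 17495 genes in the other 69. In these 3 libraries the MYC paralog MYCN, which is almost silent elsewhere, reached 101.6 to 119.7 CPM, and the summed level of 6 markers of other cell types was 65.65 to 67.43 CPM as compared to 0 to 1.52 CPM in the others. PTPRC (31.1 to 32.6 CPM) and CD3E (31.1 to 32.6 CPM), which define leukocytes and T cells, made up almost all of this sum, COL1A1 reached 1.60 to 2.57 CPM, and EPCAM, PECAM1 and KRT5 were at or near 0. Among the melanoma markers, SOX10 (median 249.8 CPM), MITF (151.2 CPM) and S100B (341.8 CPM) were abundant, while MLANA and TYR were near 0 (medians 0.20 and 0.21 CPM in the other 69). The summed level of the 10 melanoma markers was 830.8 to 1091 CPM in the 3 libraries and 447.9 to 1839 CPM in the other 69. Values with and without these 3 libraries are given where they bear on a result, and their part in it was not tested.

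**Figure D1:**
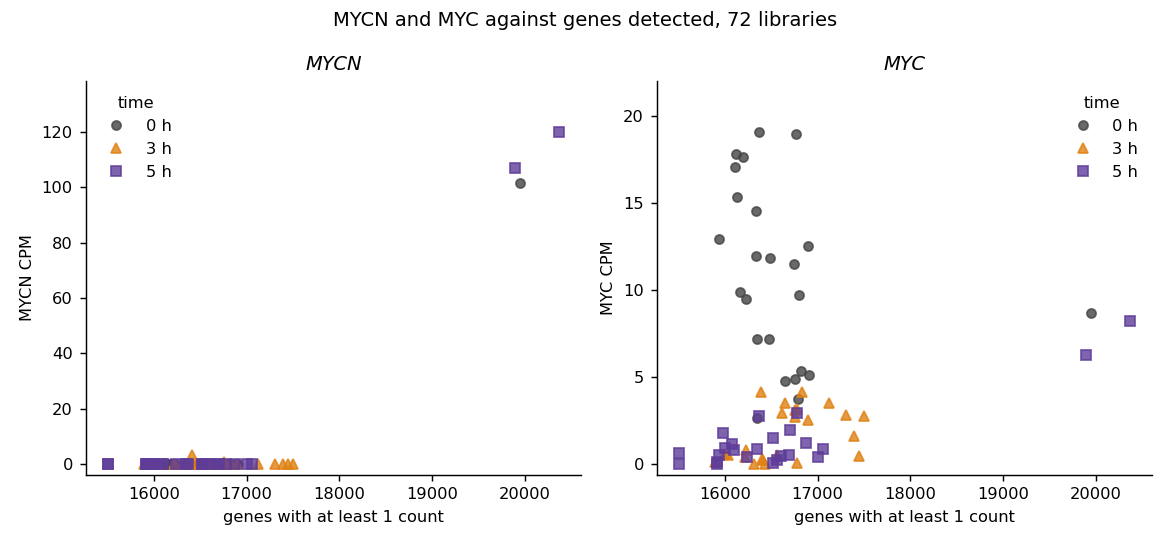
Level of MYCN and of MYC (CPM) plotted against the number of genes with at least 1 count, 1 point for each of the 72 libraries. The 3 libraries with 19896 to 20364 genes carry 101.6 to 119.7 CPM of MYCN, while their MYC level of 6.30 to 8.71 CPM lies within the range of the other 69 libraries.

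The CACGTG palindrome is the E-box form shared by MYC, MAX, MXD and MLX pairs. It was looked for in the window from 250 bases before to 50 bases after each RefSeq gene start (GRCh38.p14), on both strands since the motif is its own reverse complement. A window was given for 8 members (MYC had none), with 13 windows in all, and 3 members held the motif, MNT, MXD4 and MLX. Across all 35116 windows, 7.26% held it. No match was found in the windows of MAX, MXD1, MXD3, MXI1, MGA, MLXIP and TXNIP, which says only that these letters are not in these windows. The 30 bases around each match are shown with the motif in capitals, for the members that hold it and for ARRDC4, because MNT, MLX and the MLX targets are among the mRNAs described next.
MNT: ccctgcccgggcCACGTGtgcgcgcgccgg
MXD4: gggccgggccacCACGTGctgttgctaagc
MLX: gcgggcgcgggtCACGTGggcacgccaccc
ARRDC4: aaacggcctgtgCACGTGcacgccggagcc
The windows lay at chr17:2401236-2401265 (minus strand, MNT), chr4:2262330-2262359 (minus, MXD4), chr17:42567038-42567067 (plus, MLX) and chr15:97960481-97960510 (plus, ARRDC4). Between the end of the motif and the gene start lay 187, 232, 44 and 204 bases, respectively.

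The first comparison asked how CTU2 depletion changed the network before transcription was blocked. At 0 h in the T arm, 5 of 9 members differed between siCTU2 and siGL2 cells (edgeR quasi-likelihood test with Benjamini-Hochberg adjustment over 12292 genes, threshold 0.05). MYC, MAX and MXI1 were lower, and MNT and MLX were higher. Of all genes tested, 36% were called, 17.8% higher and 18.2% lower, so that a call is common in this comparison.

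The level of MYC (chromosome 8, 127735434 to 127742951, plus strand, GRCh38) was 7.17, 4.80 and 5.13 CPM in siCTU2 cells and 15.36, 11.97 and 9.51 CPM in siGL2 cells. All siCTU2 libraries lay below all siGL2 libraries, and the mRNA was 2.17-fold lower (log2 fold change -1.12, SE 0.24, adjusted p = 0.00132 by edgeR). The 0 h libraries of the TCHX arm are separate libraries of the same states. Their cells had also received cycloheximide, so that they are no plain repeat of the T arm. In them MYC was at 3.75, 5.34 and 4.87 CPM in siCTU2 cells and at 17.81, 11.86 and 12.56 CPM in siGL2 cells. There the groups were again apart (log2 fold change -1.58, SE 0.23, adjusted p = 2.02e-05 by edgeR, with 37.2% of all genes called).

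MAX, the shared partner of the network (chromosome 14, 65006174 to 65102695, minus strand), was at 148.0, 131.0 and 146.7 CPM in siCTU2 cells and at 180.5, 193.2 and 179.9 CPM in siGL2 cells. The groups did not overlap, and the difference was small (log2 fold change -0.38, SE 0.08, adjusted p = 0.000843 by edgeR). MXI1, a MAX-binding repressor (chromosome 10, 110207605 to 110287365, plus strand), was likewise lower, with 96.73, 91.57 and 107.3 CPM as compared to 128.6, 120.1 and 126.4 CPM (log2 fold change -0.34, SE 0.08, adjusted p = 0.00354 by edgeR). In the TCHX arm the log2 fold changes were -0.39 for MAX and -0.35 for MXI1, both called.

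MNT, the broadly expressed antagonist of MYC (chromosome 17, 2384073 to 2401104, minus strand), was at 16.96, 18.17 and 20.61 CPM in siCTU2 cells and at 12.24, 14.57 and 13.34 CPM in siGL2 cells. The groups did not overlap in the T arm (log2 fold change 0.47, SE 0.16, adjusted p = 0.0275 by edgeR). The call was lost without siCTU2 replicate 3 (0.39, edgeR adjusted p = 0.122), without siGL2 replicate 1 (0.40, edgeR adjusted p = 0.106) and without siGL2 replicate 3 (0.47, edgeR adjusted p = 0.0602), and with DESeq2 (0.47, adjusted p = 0.0608). In the TCHX arm at 0 h MNT was at 17.6, 15.4 and 17.55 CPM in siCTU2 cells and at 16.16, 18.25 and 19.83 CPM in siGL2 cells, where the groups overlapped and the log2 fold change was -0.10 (SE 0.15, adjusted p = 0.647 by edgeR). The difference between the arms was -0.57 (SE 0.21, unadjusted p = 0.0121, edgeR adjusted p = 0.543), in a test that called 0 of 13089 genes and had 983 at an unadjusted p under 0.05.

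MLX (chromosome 17, 42567072 to 42573239, plus strand) was at 70.18, 85.48 and 77.91 CPM in siCTU2 cells and at 59.83, 60.09 and 52.72 CPM in siGL2 cells, with no overlap (log2 fold change 0.43, SE 0.10, adjusted p = 0.00234 by edgeR). The TCHX arm gave the same value of 0.43, also called. MXD1 (-0.17), MXD3 (0.10), MXD4 (0.11) and MGA (-0.07) did not pass the threshold (edgeR adjusted p = 0.63, 0.78, 0.74 and 0.70). MXD1 lies on chromosome 2 (69897688 to 69942945, plus strand), MXD3 on chromosome 5 (177301461 to 177312757, minus strand), MXD4 on chromosome 4 (2247432 to 2262109, minus strand) and MGA on chromosome 15 (41621134 to 41773081, plus strand).

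**Figure D2:**
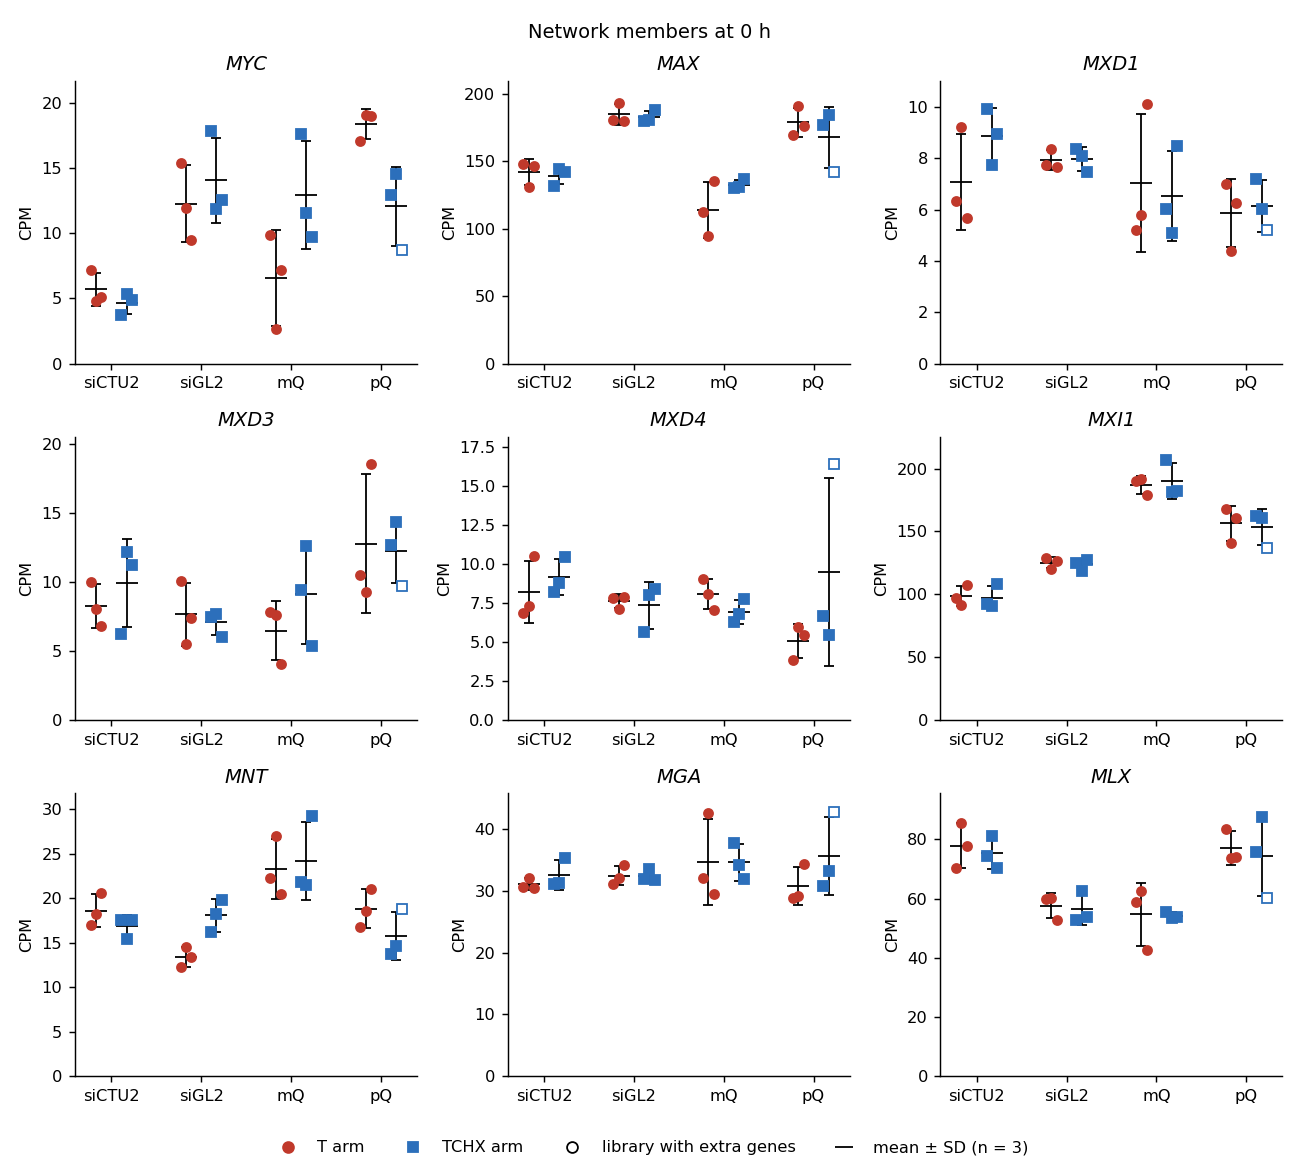
Level of each of the 9 members (CPM) at 0 h in the 4 states, with T arm libraries in red and TCHX arm libraries in blue, open symbols for the library with extra genes, and mean ± SD of 3 libraries. MYC lies at 3.75 to 7.17 CPM in siCTU2 cells and at 9.51 to 17.81 CPM in siGL2 cells in both arms, while in mQ cells it lies at 2.66 to 9.90 CPM in the T arm and at 9.73 to 17.63 CPM in the TCHX arm.

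The medium experiment was analysed likewise. At 0 h in the T arm, 5 of 9 members differed between mQ and pQ cells, as compared to 24.8% of 12374 genes (12.5% higher and 12.4% lower in mQ cells). MYC, MAX, MXD3 and MLX were lower and MXI1 was higher. MYC and MAX were thus lower in both experiments in this arm, while MLX and MXI1 were called in opposite directions. Whether the effects differed between the experiments was not tested.

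MYC was at 9.90, 2.66 and 7.19 CPM in mQ cells and at 17.07, 19.05 and 18.98 CPM in pQ cells, with no overlap (2.74-fold lower, log2 fold change -1.45, SE 0.33, adjusted p = 0.00906 by edgeR). Replicate 2 of the mQ cells had the lowest value, and without it the log2 fold change was -1.05 and still past the threshold (edgeR adjusted p = 0.000747). In the TCHX arm at 0 h, MYC was at 17.63, 11.52 and 9.73 CPM in mQ cells and at 12.94, 14.55 and 8.71 CPM in pQ cells, the last of these being a library with extra genes. The groups overlapped there, and the log2 fold change was 0.12 (SE 0.26, adjusted p = 0.836 by edgeR) or -0.08 without that library (edgeR adjusted p = 0.86). The difference between the arms was 1.57 (SE 0.48, unadjusted p = 0.00475, edgeR adjusted p = 0.471) in a test that called 0 of 13014 genes and had 1366 at an unadjusted p under 0.05. With both arms in a single fit, MYC was lower in mQ cells by a log2 fold change of -0.67 (SE 0.24, adjusted p = 0.0455 by edgeR), or -0.77 without the library with extra genes.

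MAX was at 112.1, 94.28 and 135.4 CPM in mQ cells and at 169.5, 190.4 and 175.9 CPM in pQ cells, with no overlap (log2 fold change -0.60, SE 0.13, adjusted p = 0.00723 by edgeR). MLX was at 58.78, 62.6 and 42.6 CPM as compared to 83.61, 73.57 and 73.97 CPM (log2 fold change -0.44, SE 0.14, adjusted p = 0.0434 by edgeR). MXI1 was higher, with 190.3, 191.7 and 179.1 CPM in mQ cells and 167.7, 140.5 and 161.0 CPM in pQ cells (log2 fold change 0.31, SE 0.10, adjusted p = 0.0480 by edgeR). The calls of MLX, MXD3 and MXI1 lay close to the threshold and were each lost when single libraries were left out. Without mQ replicate 1, pQ replicate 1, pQ replicate 2 or pQ replicate 3, MYC and MAX were the 2 members called, and without mQ replicate 3 they were joined by MXI1.

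MXD3 was at 7.80, 7.61 and 4.05 CPM in mQ cells and at 10.52, 9.28 and 18.57 CPM in pQ cells (log2 fold change -0.93, SE 0.32, adjusted p = 0.0492 by edgeR). The pQ library with 18.57 CPM was the highest of all 72 libraries, and without it the log2 fold change was -0.55 (edgeR adjusted p = 0.239). MXD4 (0.71), MNT (0.36), MXD1 (0.32) and MGA (0.23) did not pass (edgeR adjusted p = 0.0606, 0.142, 0.486 and 0.336).

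In the TCHX arm at 0 h, 0 members were called by edgeR between mQ and pQ cells (6.47% of all genes). There 4 members had an unadjusted p under 0.05, a threshold for which the share of all genes is not given. Without the library with extra genes, 4 members were called (20.1% of all genes). These were MAX (log2 fold change -0.42), MLX (-0.56), MXI1 (0.26) and MNT (0.80). MNT was at 21.81, 21.47 and 29.2 CPM in mQ cells of this arm and at 13.72, 14.65 and 18.82 CPM in pQ cells, with no overlap (edgeR adjusted p = 0.00377 without that library). The part of the leukocyte markers of that library in these values was not tested.

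Because MLX acts with MondoA, the partner and targets were examined beside it. MLXIP (chromosome 12, 122078756 to 122147344, plus strand) was higher in siCTU2 than in siGL2 cells (55.35 ± 4.07 as compared to 41.4 ± 6.19 CPM, SD, n = 3, log2 fold change 0.41, edgeR adjusted p = 0.0107). It was lower in mQ than in pQ cells (45.92 ± 5.93 as compared to 65.79 ± 2.70 CPM, SD, n = 3, log2 fold change -0.47, edgeR adjusted p = 0.0178), so that MLX and MLXIP were called in the same direction in each experiment. The calls of MLXIP were lost without siCTU2 replicate 1 (0.35, edgeR adjusted p = 0.0568) or siGL2 replicate 3 (0.30, 0.0694), and without pQ replicate 1 (-0.50, 0.0517), 2 (-0.45, 0.0791) or 3 (-0.46, 0.0583). TXNIP, an arrestin that limits glucose uptake (chromosome 1, 145992435 to 145996579, minus strand), was called higher in both.

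TXNIP was at 149.7, 141.8 and 136.5 CPM in siCTU2 cells and at 41.58, 44.05 and 59.64 CPM in siGL2 cells, a 2.94-fold difference (log2 fold change 1.56, SE 0.11, adjusted p = 6.00e-09 by edgeR). It was at 299.3, 167.2 and 663.2 CPM in mQ cells and at 75.03, 73.18 and 83.14 CPM in pQ cells, a 5.06-fold difference (log2 fold change 2.34, SE 0.36, adjusted p = 0.0012 by edgeR). The mQ libraries spread widely, and all of them lay above all pQ libraries. Without mQ replicate 3, the highest, the log2 fold change was 1.64 (edgeR adjusted p = 0.000152). ARRDC4, the other arrestin target (chromosome 15, 97960703 to 97973833, plus strand), did not pass in either experiment (log2 fold changes 0.60 and 0.33, edgeR adjusted p = 0.141 and 0.728), and its value for mQ cells was -1.09 without mQ replicate 3 (edgeR adjusted p = 0.135).

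**Figure D3:**
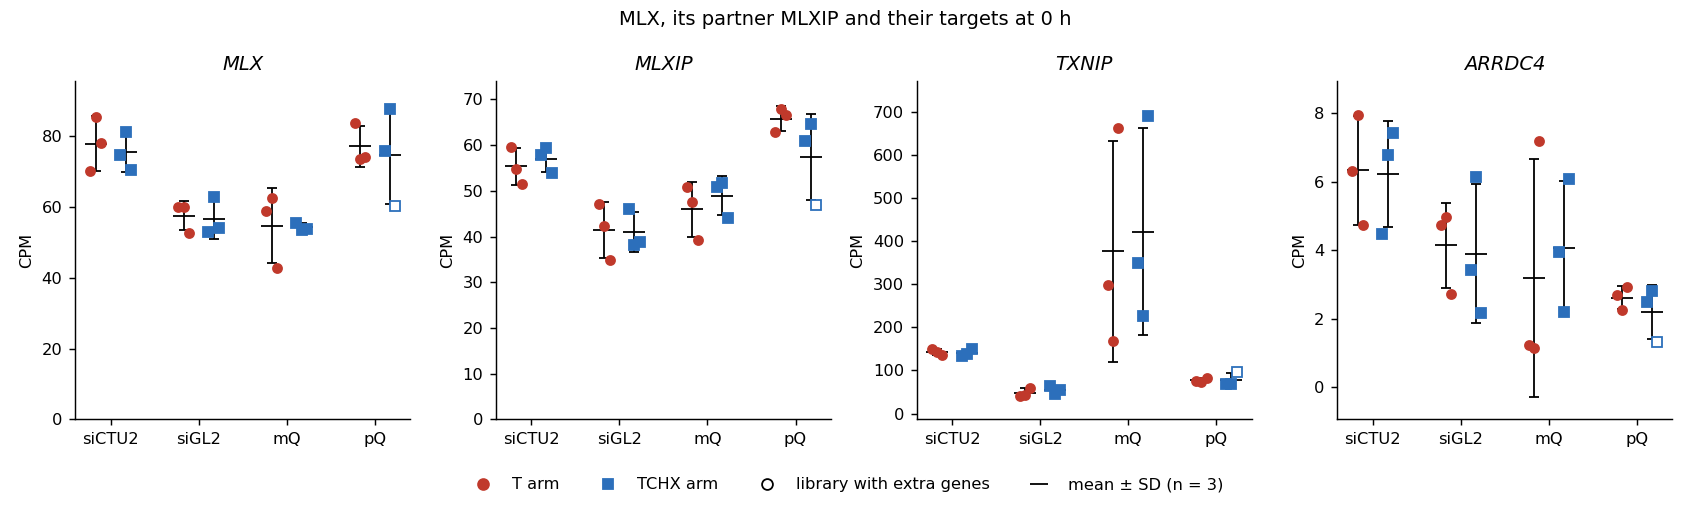
Level of MLX, its partner MLXIP and the targets TXNIP and ARRDC4 (CPM) at 0 h in the 4 states, with T arm libraries in red, TCHX arm libraries in blue, open symbols for the library with extra genes, and mean ± SD of 3 libraries. MLX and MLXIP are higher in siCTU2 and lower in mQ cells than in their controls, whereas TXNIP lies above its control in both, at 136.5 to 149.7 CPM in siCTU2 and 167.2 to 663.2 CPM in mQ cells of the T arm.

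Other genes of the pathway were taken from lists. Of 14 chromatin and transcription cofactors of the network, 4 were lower and 0 higher in siCTU2 cells (list median log2 fold change 0.02), and 2 were higher and 2 lower in mQ cells (median 0.09). Over all genes the medians were 0.00 and 0.01, and 17.8% were higher and 18.2% lower in siCTU2 cells and 12.5% higher and 12.4% lower in mQ cells, which is the background for the counts of each list. RUVBL1, an ATPase that binds MYC (log2 fold change -0.53), and the acetyltransferase KAT5 (-0.34) had the smallest adjusted p-values in siCTU2 cells (1.62e-05 and 0.00442, edgeR). In mQ cells the corepressor NCOR1 (0.40) was higher, and TRRAP, a scaffold of acetyltransferase complexes (-0.94), and WDR5 (-0.39) were lower. The value of TRRAP changed sign in the TCHX arm (0.23). The calls of NCOR1, TRRAP and WDR5 were lost without mQ replicate 1 (0.42, -0.82 and -0.46) and without pQ replicate 2 (0.40, -0.82 and -0.34). Those of NCOR1 (0.38) and WDR5 (-0.42) were also lost without pQ replicate 1, and that of WDR5 without mQ replicate 2 (-0.25) and pQ replicate 3 (-0.41).

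Of 13 genes that control the turnover of MYC protein, 2 were higher and 1 lower in siCTU2 cells (median -0.03), and 2 were higher and 3 lower in mQ cells (median 0.04). The ubiquitin ligase TRIM32 (log2 fold change 0.72) and the kinase AURKA (0.51) were higher and the kinase GSK3B (-0.60) lower in siCTU2 cells. The ligase HUWE1 (0.73) and the deubiquitinase USP36 (0.42) were higher in mQ cells, whereas SKP2, the receptor of a ubiquitin ligase (-1.15), and the phosphatase inhibitor CIP2A (-0.55) were lower. The call of USP36 was lost without mQ replicate 1 (0.43), pQ replicate 1 (0.45) or pQ replicate 2 (0.35). Of 6 proteins that bind the MYC mRNA or other unstable mRNAs, KHSRP (-0.83) was lower and TIAL1 (0.42) higher in siCTU2 cells (median 0.04), and ELAVL1 (-0.70) and HNRNPD (-0.55) were lower in mQ cells (median -0.20).

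Genes known to be activated by MYC were called in both directions. Of 28 tested from a list of 32, 5 were higher and 6 lower in siCTU2 cells (median -0.07), and 2 were higher and 7 lower in mQ cells (median -0.13). The cell cycle factor E2F1 (0.79) and IMPDH2 (0.26) were higher in siCTU2 cells, where the translation factor EIF4G1 (-0.68) and the pyrimidine enzyme CAD (-0.39) were lower. In mQ cells SHMT2 (1.17) and BCAT1 (1.03), enzymes of serine and branched-chain amino acid metabolism, were higher, and CKS2 (-1.21) and the transferrin receptor TFRC (-0.74) were lower.

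Of 5 tested genes known to be repressed by MYC, from a list of 7, 2 were higher and 1 lower in siCTU2 cells (median -0.07) and 3 were higher and 0 lower in mQ cells (median 0.59). CDKN1A, the cyclin-dependent kinase inhibitor p21, was at 267.8 ± 9.78 CPM in siCTU2 cells and at 47.48 ± 6.59 CPM in siGL2 cells (SD, n = 3), a log2 fold change of 2.50 (edgeR adjusted p = 1.12e-12). GADD45A (1.08) was also higher and NDRG2 (-1.52) lower. In mQ cells GADD45A (1.39) and NDRG1 (0.59) had the smallest adjusted p-values among the higher genes (0.000225 and 0.00766, edgeR), and NDRG1 lost its call without pQ replicate 1 (log2 fold change 0.48).

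The decay of the members was then followed in the T arm. After a transcription block, library totals are no scale, and counts were divided by size factors from genes that rose in CPM over time (called stable genes, 197 in the siRNA and 81 in the medium experiment, with 0 members among them). A change over time is therefore relative to these genes, and the median of all genes at 3 h was itself lowered, by log2 values of -0.55, -0.47, -0.69 and -0.68 in the siCTU2, siGL2, mQ and pQ states. The members' medians were -0.63, -0.57, -0.85 and -0.86. On this scale 5, 2, 6 and 8 members fell in the siCTU2, siGL2, mQ and pQ states, as compared to 36.7%, 27.9%, 53.6% and 52.7% of all genes tested. No member rose.

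Among the members, MYC fell most in every state. Its counts in siCTU2 cells were 68, 52 and 66 at 0 h and 1, 6 and 7 at 3 h. In siGL2 cells it had 133, 106 and 77 counts at 0 h and 8, 5 and 0 at 3 h. In mQ cells the counts were 80, 28 and 64 at 0 h and 2, 1 and 3 at 3 h, and in pQ cells they were 159, 195 and 234 at 0 h and 4, 5 and 0 at 3 h. Every 3 h library thus lay far below every 0 h library of its state.

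Summed over 3 libraries and scaled to the stable genes, 5.06% of MYC was left at 3 h in siCTU2 cells (exact 95% interval from the summed counts 2.71 to 8.70%), 3.06% in siGL2 cells (1.61 to 5.31%), 2.51% in mQ cells (0.909 to 5.58%) and 1.14% in pQ cells (0.520 to 2.19%). These intervals, and those of the TCHX arm below, cover counting error only, since the counts of 3 libraries were summed. They leave out the spread between libraries. They also take reads as independent, although reads carried no stated molecular identifiers. The fitted log2 changes were -4.30 (SE 0.85), -5.01 (SE 0.75), -5.26 (SE 1.01) and -6.34 (SE 0.72), with edgeR adjusted p-values of 0.00107, 0.000126, 0.00108 and 4.34e-06. The call was lost without replicate 1 in siCTU2 cells (-3.66, edgeR adjusted p = 0.0712) and without replicate 2 in mQ cells (-5.45, edgeR adjusted p = 0.053), where 0 genes at all were called. At 5 h MYC was at 0 to 1.78 CPM in the T arm, except for mQ replicate 3, the library with extra genes, which held 8.23 CPM.

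**Figure D4:**
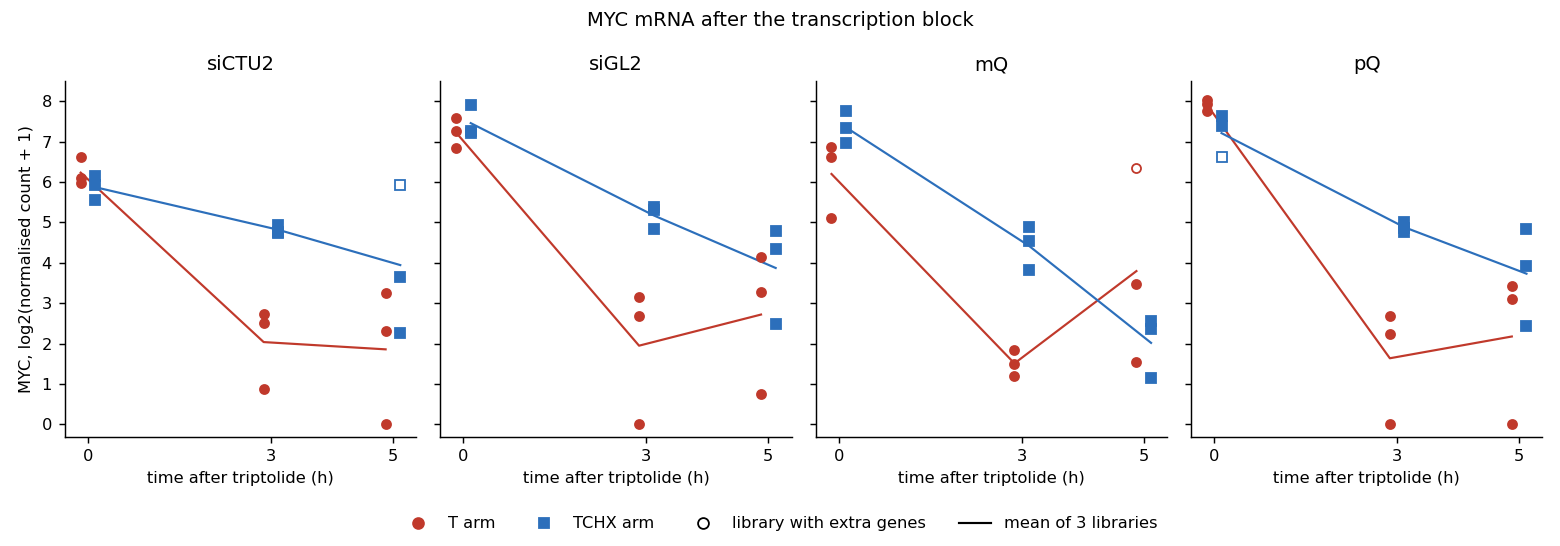
MYC as log2 of the normalised count plus 1 (counts divided by size factors of the stable genes) against hours of treatment in the 4 states, with points for single libraries, open symbols for libraries with extra genes, and lines through the means of 3 libraries of the T arm (red) and the TCHX arm (blue). At 3 h the normalised counts are 0 to 7.95 in the T arm and 13.1 to 40.8 in the TCHX arm.

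MXD1, a MAX-binding repressor linked to differentiation, had the next largest change in siGL2, mQ and pQ cells, though not in siCTU2 cells, where MGA and MNT changed more. Its normalised count in pQ cells went from 88.6, 60.1 and 80.5 at 0 h to 10.2, 20.5 and 14.3 at 3 h (log2 change -2.34, SE 0.38, adjusted p = 0.000143 by edgeR). In mQ cells it went from 60.7, 73.1 and 137 to 22.9, 23.0 and 22.3 (-1.94, SE 0.48, adjusted p = 0.00399 by edgeR), and in siCTU2 cells from 86.3, 118 and 75.1 to 46.8, 57.9 and 40.8 (-0.94, SE 0.29, adjusted p = 0.0188 by edgeR). In none of these did the 2 times overlap. In siGL2 cells it went from 96.5, 106 and 91.1 to 70.5, 64.1 and 28.1, which did not pass (-0.85, edgeR adjusted p = 0.157).

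MGA fell in all 4 states, with log2 changes of -1.12, -0.80, -1.47 and -0.87 (edgeR adjusted p = 0.00126, 0.00187, 0.00171 and 0.00107 in the siCTU2, siGL2, mQ and pQ states). Its normalised counts in siCTU2 cells were 419, 413 and 403 at 0 h and 194, 194 and 179 at 3 h, and no state had any overlap. MNT fell in siCTU2 (-1.07), mQ (-1.07) and pQ cells (-1.29), and its value in siGL2 cells was -0.34 (edgeR adjusted p = 0.239). In siGL2 cells MNT had normalised counts of 153, 186 and 159 at 0 h and of 157, 132 and 104 at 3 h, which overlapped. The difference between siCTU2 and siGL2 cells in the change of MNT was -0.74 (SE 0.29, unadjusted p = 0.0176, edgeR adjusted p = 1), in a test that called 0% of 14259 genes with 414 at an unadjusted p under 0.05. It shares the T arm 0 h libraries with the 0 h difference of MNT given above and is no separate evidence. In siGL2 cells at 0 h, MNT was at 12.24 to 14.57 CPM in the T arm and at 16.16 to 19.83 CPM in the TCHX arm. The part of these 0 h values in the difference was not tested.

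The abundant members changed less. MXI1 fell in siCTU2, mQ and pQ cells by 0.52, 0.66 and 0.50 on the log2 scale, and was -0.43 in siGL2 cells (edgeR adjusted p = 0.0779). MLX fell in mQ (-0.85) and pQ cells (-0.66), and MAX in pQ cells (-0.79, edgeR adjusted p = 0.0336). In the other states MAX lay between -0.57 and -0.63 and missed the threshold. These values lie near the median of all genes, and with TMM scaling, which sets that median close to 0, MXI1 changed sign in siCTU2, mQ and pQ cells (0.03, 0.04 and 0.18) and MLX in pQ cells (0.01).

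MXD3 fell in pQ cells (-0.86, edgeR adjusted p = 0.0280), from normalised counts of 134, 127 and 240 to 95.8, 74.3 and 103. Without replicate 3, the library with the highest 0 h value, the change was -0.60 (edgeR adjusted p = 0.0654). MXD4 was not called in any state at 3 h (0.08, -0.33, -0.54 and -0.11 in the siCTU2, siGL2, mQ and pQ states). Its normalised counts in siCTU2 cells were 93.5, 93.4 and 139 at 0 h and 124, 105 and 116 at 3 h, which overlapped.

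With TMM scaling, 1 member was called in siCTU2, siGL2 and mQ cells each (7.80%, 8.25% and 5.91% of all genes lower) and 2 in pQ cells (7.90%). MYC was called in all 4 states (-3.75, -4.54, -4.59 and -5.68), and MXD1 in pQ cells (-1.67, edgeR adjusted p = 0.0041). Where replicate numbers paired the libraries, a replicate block added members on the stable-gene scale. MLX (-0.50), MXD1 (-0.94) and MXI1 (-0.44) joined in siGL2 cells, where 5 members were then called, and MLX (-0.40) joined in siCTU2 cells. The share of all genes called with the block in the T arm is not given. In the TCHX arm of siGL2 cells the block raised the calls over all genes too, so that the added members are no result about the network.

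**Figure D5:**
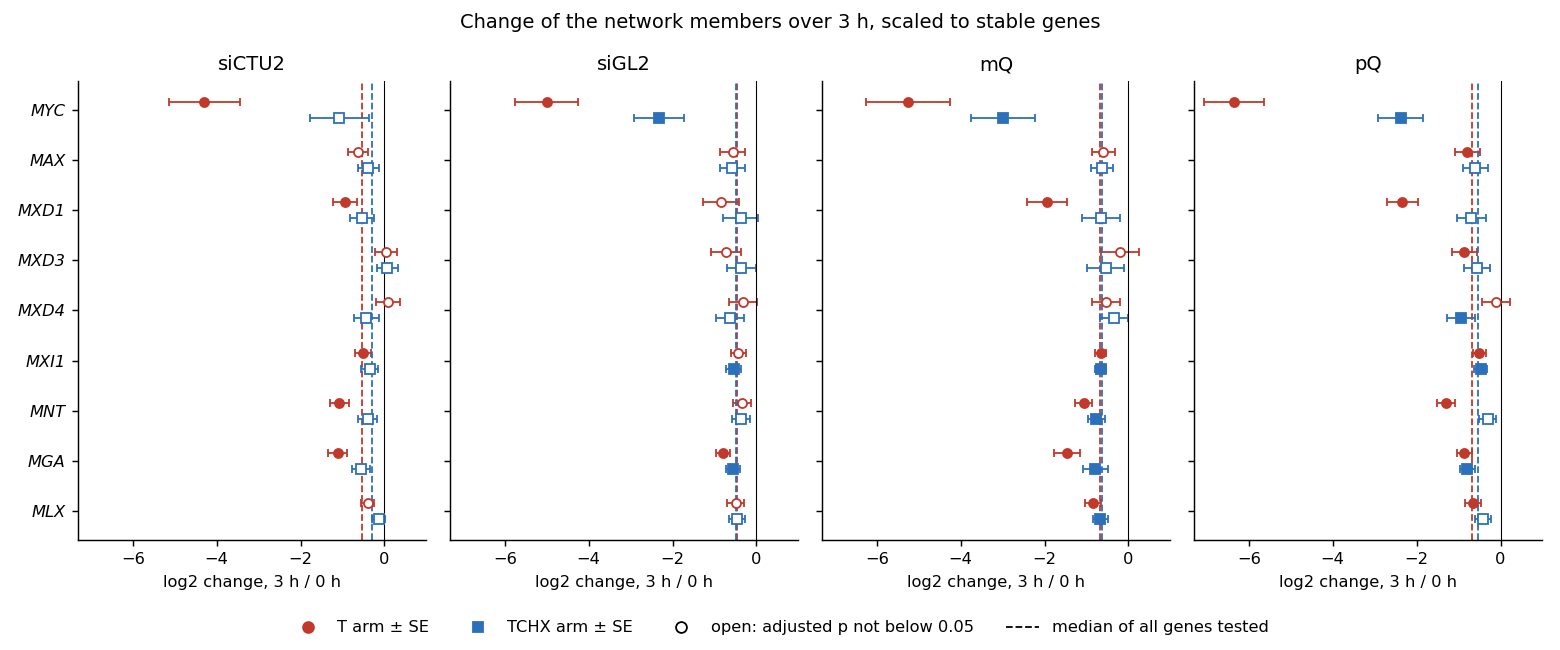
Log2 change from 0 h to 3 h (± SE, edgeR, counts scaled to stable genes) of the 9 members in the 4 states, with the T arm in red and the TCHX arm in blue, filled symbols for an adjusted p under 0.05, and dashed lines at the median of all genes of each arm. MYC stands at -4.30 to -6.34 in the T arm and at -1.07 to -2.99 in the TCHX arm, while most other members lie close to the dashed lines.

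With translation also blocked (TCHX arm), 0, 3, 5 and 4 members fell by 3 h in the siCTU2, siGL2, mQ and pQ states, as compared to 3.00%, 17.1%, 38.5% and 32.7% of all genes. In siCTU2 cells edgeR had 1 member at an unadjusted p under 0.05 (MGA), and DESeq2 also called 0. The medians over all genes were -0.31, -0.48, -0.62 and -0.53, and those over the members -0.40, -0.54, -0.66 and -0.60.

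In this arm MYC had 24, 44 and 30 counts at 3 h in siCTU2 cells, 39, 58 and 34 in siGL2 cells, 29, 33 and 24 in mQ cells and 32, 42 and 40 in pQ cells. Of the 0 h level of the same arm, 47.5% was left in siCTU2 cells (exact 95% interval 36.4 to 61.6%), 20.7% in siGL2 cells (16.96 to 25.2%), 12.4% in mQ cells (9.69 to 15.6%) and 20.0% in pQ cells (16.03 to 24.7%). The fitted log2 changes were -1.07 (SE 0.70, adjusted p = 0.353 by edgeR), -2.32 (SE 0.59, 0.0162), -2.99 (SE 0.76, 0.00986) and -2.38 (SE 0.54, 0.00669). The siCTU2 value started from the lowest 0 h level of the 4 states (3.75 to 5.34 CPM), and the levels at 3 h were 2.56, 2.83 and 2.76 CPM in siCTU2 and 4.13, 4.16 and 3.12 CPM in siGL2 cells. The calls of MYC in this arm were lost without replicate 1 and without replicate 2 in siGL2 (-2.13 and -2.58), mQ (-2.78 and -3.25) and pQ cells (-2.29 and -2.27), with edgeR adjusted p-values between 0.122 and 0.269.

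The other members called in the TCHX arm were MGA (-0.57, -0.79 and -0.79) and MXI1 (-0.54, -0.66 and -0.47) in siGL2, mQ and pQ cells, MNT (-0.77) and MLX (-0.67) in mQ cells, and MXD4 (-0.94) in pQ cells. The last of these rested on the library with extra genes, where MXD4 had a normalised count of 182 as compared to 84.9 and 73.9 in replicates 1 and 2. Without replicate 3 the change of MXD4 was -0.26 (edgeR adjusted p = 0.516). With the replicate block, which called 4851 genes in place of 2378 in siGL2 cells, MLX joined there (-0.45), and MAX (-0.58) and MLX (-0.41) in pQ cells. MXD1 was not called in any state of this arm.

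The effect of cycloheximide was taken from the TCHX and T arms at the same time. These comparisons share the 3 h libraries with the changes over time given above and are no separate evidence. At 3 h the log2 difference of MYC (TCHX minus T) was 2.85 in siCTU2, 2.93 in siGL2, 3.32 in mQ and 3.29 in pQ cells, and the 2 arms did not overlap in any state. It passed the threshold in siGL2 (7.63-fold, SE 0.76, adjusted p = 0.0409 by edgeR) and pQ cells (9.79-fold, SE 0.74, adjusted p = 0.0181 by edgeR), and not in siCTU2 (SE 0.85, adjusted p = 0.0670 by edgeR) or mQ cells (SE 1.03, adjusted p = 0.134 by edgeR). In all, 0, 1, 0 and 2 members were called higher by edgeR, as compared to 4.71%, 3.58%, 0.290% and 2.76% of all genes. In siCTU2 and mQ cells 3 members each had an unadjusted p under 0.05, and DESeq2 called 1 in each, MYC. The shares of all genes at that unadjusted p or called by DESeq2 are not given. The percentages above are edgeR calls after adjustment. The median over all genes was 0.14, 0.05, 0.13 and 0.05.

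The 2 states without a call each had a library with extra genes among the 18 libraries of the fit, at 5 h. The pQ fit, which had a call, also held such a library, in the TCHX arm at 0 h. MYC was called in pQ cells without it as well (3.29, SE 0.73, adjusted p = 0.0152 by edgeR). The part of these libraries in the calls was not tested. Without their 5 h library MYC was called in siCTU2 (2.85, SE 0.64, adjusted p = 0.0116 by edgeR, with 6.10% of all genes called) and in mQ cells (3.30, SE 0.67, adjusted p = 0.00272 by edgeR, with 9.99% called). In that fit of mQ cells MXD1 (1.19) and MGA (0.71) were called as well. Leaving out all libraries of replicate 1 or of replicate 2 ended the calls of MYC in siGL2 (3.57 and 2.91) and pQ cells (3.53 and 3.85), while without replicate 3 MYC was called in all 4 states, with values between 2.56 and 3.86.

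MXD1 was the other member with a call. Its CPM in pQ cells at 3 h was 1.16, 2.17 and 1.80 in the T arm and 4.33, 5.25 and 6.59 in the TCHX arm, with no overlap (3.08-fold, log2 difference 1.62, SE 0.37, adjusted p = 0.0207 by edgeR). It lost its call without each replicate (1.47, 1.84 and 1.48, edgeR adjusted p = 0.347, 0.289 and 0.0523). In siCTU2, siGL2 and mQ cells the values were 0.66, 0.53 and 1.2, which did not pass. MNT did not pass in any state (0.44, 0.45, 0.39 and 0.62), and MXI1, MAX and MXD4 lay between -0.45 and 0.24.

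At 5 h, 19.1%, 9.62%, 0.171% and 9.86% of all genes were higher with cycloheximide in the siCTU2, siGL2, mQ and pQ states. In siCTU2 cells 5 members were called, MYC (2.46), MXD1 (1.53), MNT (0.89), MXD3 (0.79) and MGA (0.69). Without the library labelled siCTU2 TCHX at 5 h replicate 3, which went against its label, MXD1 (1.66), MXD3 (0.92) and MNT (0.76) were called and MYC was not (0.74, edgeR adjusted p = 0.699). The share of all genes called without that library is not given. MYC was at 1.22, 0.42 and 6.30 CPM in these TCHX libraries, the last being that library, and at 0.43, 0.86 and 0 CPM in the T arm.

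In siGL2 cells MNT (0.93, edgeR adjusted p = 0.00717) and in pQ cells MXD1 (2.17, edgeR adjusted p = 0.000976) were the members called at 5 h. MXD1 in pQ cells was at 1.44, 0.89 and 0.42 CPM in the T arm and at 4.52, 4.90 and 4.17 CPM in the TCHX arm. In mQ cells 0 members were called by edgeR (1 at an unadjusted p under 0.05), and MXD1 (1.5) and MGA (1.0) were called without the library with extra genes. The share of all genes called at 5 h without that library is not given, and 0.171% belongs to the fit with it. At 3 h the share in mQ cells was 0.290% with it and 9.99% without it. MYC did not pass at 5 h in siGL2, mQ or pQ cells (1.09, -3.12 and 1.38), and the mQ value was -0.65 without that library.

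Among other genes of the pathway, TXNIP showed a large cycloheximide effect at 3 h, with log2 values of 2.10, 2.54, 3.61 and 2.68 in the siCTU2, siGL2, mQ and pQ states, called in all but mQ cells (edgeR adjusted p = 0.0599, and 0.00597 with the replicate block). Over 3 h of the T arm the log2 change of TXNIP was -2.79, -3.62, -4.78 and -4.44, all past the threshold. Of the activated targets, RRS1, a ribosome assembly factor, was higher with cycloheximide in siCTU2 (1.67), siGL2 (0.94) and pQ cells (0.99), and no other gene of the list was called. GADD45A, of the repressed targets, was higher in all 4 states, and CDKN1A was lower in siGL2 cells (-0.66). TRIM32 (1.13, siCTU2), USP36 (0.57 in siCTU2 and 0.69 in siGL2) and the corepressor SIN3B (0.79, siCTU2) were the other genes called. The calls of SIN3B, TRIM32, USP36 and CDKN1A, of RRS1 in siGL2 and pQ cells and of GADD45A in siCTU2, mQ and pQ cells were each lost when a single replicate was left out. The same held for TXNIP in siCTU2 cells without replicate 1 (1.97) and in siGL2 cells without replicate 2 (2.54). No gene of the mRNA-binding list was called. In the T arm over 3 h, 11 of 29, 11 of 29, 21 of 28 and 16 of 29 tested activated targets fell in the siCTU2, siGL2, mQ and pQ states, where 36.7%, 27.9%, 53.6% and 52.7% of all genes fell. Their medians were -0.43, -0.40, -0.65 and -0.59, as compared to -0.55, -0.47, -0.69 and -0.68 over all genes. Of the 5 tested repressed targets, 2, 3, 4 and 5 fell. No gene of either list rose, on a scale that leaves little room for a rise.

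Whether T arm decay or the cycloheximide effect at 3 h differed between states was tested as an interaction over 36 libraries. Whether the change over time in the TCHX arm differed between states was not tested. No member was called by edgeR for either in either experiment, where 0% of 14259 and of 14177 genes passed (325 and 259 genes for the cycloheximide effect, and 414 and 356 for decay, at an unadjusted p under 0.05). For MYC the difference in the cycloheximide effect was -0.08 (95% interval -2.83 to 2.66) between siCTU2 and siGL2 cells and 0.07 (-2.25 to 2.39) between mQ and pQ cells. This contrast takes the arms at 3 h alone. At 0 h the log2 value of TCHX minus T for MYC was 0.97 in mQ and -0.60 in pQ cells, neither called. With the 0 h difference subtracted, its cycloheximide effect was 2.27 (SE 1.27) in mQ and 3.97 (SE 0.90) in pQ cells. For the siRNAs it was 3.22 (SE 1.09) in siCTU2 and 2.68 (SE 0.95) in siGL2 cells. Whether these subtracted values differ between states was not tested. The difference in the T arm decay of MYC was 0.72 (-1.77 to 3.20) and 1.05 (-2.02 to 4.13). These intervals are wide, and the missing calls do not show that the states act alike.

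The translation-dependent decay (TDD) index is the normalised count of the TCHX arm minus that of the T arm, divided by the mean 0 h count of both arms. For pQ replicate 3 this mean includes the library with extra genes. The index compares the states on a linear scale and over 3 h and 5 h together. Unlike the log2 difference at 3 h, it depends on the 0 h level. No member had an index that differed between states at an unadjusted p of at most 0.05, as compared to 8.15% of 12263 genes for siCTU2 against siGL2 and 4.78% of 12395 genes for mQ against pQ, and 0 genes passed after adjustment. At 3 h the index of MYC was 0.351 ± 0.017 in siCTU2, 0.195 ± 0.048 in siGL2, 0.168 ± 0.102 in mQ and 0.132 ± 0.028 in pQ cells (SD, n = 3). At 5 h it was 0.322 ± 0.537, 0.054 ± 0.059, -0.241 ± 0.413 and 0.046 ± 0.037, where the wide spreads belong to the groups with a library with extra genes. Over both times the difference was 0.21 (SE 0.15) for the siRNAs and -0.13 (SE 0.12) for the media in the linear model fitted to each gene (unadjusted p = 0.199 and 0.349). The mean index of MXD1 at 3 h was 0.279 in siCTU2, 0.243 in siGL2, 0.344 in mQ and 0.413 in pQ cells, below that of MYC in siCTU2 cells and above it in the other 3 states, and this order was not tested.

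Across the 24 group means, MYC ranged from 0.233 CPM (mQ T at 3 h) to 18.4 CPM (pQ T at 0 h). The 0 h means were ordered as pQ T, siGL2 TCHX (14.1 CPM), mQ TCHX (12.96 CPM), siGL2 T (12.3 CPM), pQ TCHX (12.1 CPM), mQ T (6.58 CPM), siCTU2 T (5.70 CPM) and siCTU2 TCHX (4.65 CPM). The libraries of each pair of neighbours in this order overlapped, so that no neighbours were apart beyond their spread. For pQ TCHX and mQ T the overlap rested on the pQ library with extra genes, at 8.71 CPM. The other pQ TCHX libraries lay above all mQ T libraries, of which the highest held 9.90 CPM. In the T arm at 3 h all 4 means lay between 0.233 and 0.463 CPM and overlapped.

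Among 9663 genes with a mean of at least 5 CPM, those whose log2(CPM + 1) group means followed MYC most closely over the 24 groups were SNAI2 (Pearson r = 0.953), TRIB1 (0.948), MED9 (0.946), DUSP10 (0.942) and KBTBD7 (0.936). The groups share scale and time course, so that these values are a description. SNAI2 was at 26.02 ± 4.34 CPM at 0 h, 1.89 ± 0.29 CPM at 3 h with triptolide and 10.37 ± 0.60 CPM at 3 h with cycloheximide added in siGL2 cells (SD, n = 3). Of the members, MGA (0.773), MXD1 (0.663), MAX (0.623) and MNT (0.536) had the highest r with MYC, followed by MXD3 (0.216), MLX (0.139), MXI1 (0.13) and MXD4 (-0.283).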

How the data were processed

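Values were the raw read counts per gene deposited by the authors, who trimmed reads with fastp 0.20.1, mapped them to GRCh38.p13 with HISAT2 2.2.1 and counted them with HTSeq 0.13.5. ERCC standards had been added to the RNA, and 0 spike-in names were in the table. Of 44659 gene names, 15166 had 0 counts in all libraries, and 0 sample columns were unmatched. CPM used all genes. Members, lists and tests were chosen with earlier results of these data known. Fits used edgeR 4.0.16 in R 4.3.3 (filterByExpr, quasi-likelihood, Benjamini-Hochberg over all genes, threshold 0.05, no replicate term), with TMM over 6 libraries at 0 h and, for time and cycloheximide, stable-gene size factors over 18 libraries per state or 36 per interaction. Stable genes had a CPM above 0.2 at 0 h, at least 1.1 times that at 3 h or 5 h, and a 0 h CPM above 0.1 times the later one, in all replicates and arms. The TDD index was computed for genes averaging at least 10 normalised counts at 0 h, with a linear model with state, time and replicate. DESeq2 1.42.0 was an alternative. Scripts were tested on simulated data.

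Named were all members, CTU2, MLXIP, TXNIP, ARRDC4, up to 2 genes per direction and list with the smallest adjusted p, and the 5 genes most correlated with MYC. A gene that met this rule is not reported here. COL1A1, EPCAM and the other markers were fixed lists. Coordinates came from GENCODE v44 (GRCh38). Replicate numbers were taken as pairing the libraries where same-numbered deviations from the group means correlated above 0.1 in all 3 pairs. The lowest correlation was 0.106 at 0 h for the siRNAs, 0.173, 0.114 and 0.185 for T over time (siCTU2, siGL2, pQ), 0.161, 0.22 and 0.176 for TCHX over time (siGL2, mQ, pQ), and 0.214, 0.297 and 0.158 for TCHX against T (siCTU2, mQ, pQ). In the other comparisons it lay between -0.188 and 0.0938, and numbers were not taken as pairs. The column names of the count table carried a shared prefix for each replicate number in all groups. What this prefix stands for is not stated.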

Additional observations from a re-analysis of the deposited data

How the results depend on the processing

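Of 198 alternatives to the 20 counts of members called, 129 stayed within 1.5 times the count and 69 moved. For 302 single-gene results, 2656 alternatives kept the side of the threshold, of which 194 changed the sign of a value that was not called in either. Another 195 gained a call, 221 lost it and 12 changed sign with a call. MNT for siCTU2 at 0 h (-0.0984), MYC for mQ at 0 h (0.119) and TRRAP for mQ (0.228, and 0.05 without the library with extra genes) changed sign in the TCHX arm. MXD3 in the T arm of siCTU2 cells became -0.935 at 5 h (-0.924 without the library with extra genes). With TMM, which recentres all genes by construction, MXI1 in the T arm became 0.0315 (siCTU2), 0.0447 (mQ) and 0.175 (pQ), MXI1 in the TCHX arm of pQ cells 0.0568, and MLX in the T arm of pQ cells 0.00697. The TDD difference of ARRDC4 for mQ became -0.483 with each arm divided by its own 0 h library. The causes of other changes were not tested.

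Counts for mQ at 0 h (5) became 0 in the TCHX arm, 3 with a replicate block, where numbers did not pair the libraries, and 2 to 5 without single libraries. In the T arm, TMM gave 1, 1, 1 and 2 members in siCTU2, siGL2, mQ and pQ cells, and the count at 5 h was 8 in siCTU2 cells, with or without extra genes, and 8 in siGL2 cells. In siGL2 cells genes stable at both times gave 8 and the replicate block 5. Genes stable at both times were only 8 in the siRNA and 3 in the medium experiment, so that this scale rests on few genes. The share of all genes called on it is not given, so that its counts are no result about the members. Without single replicates the T arm gave 2 to 7, 1 to 6, 0 to 7 and 4 to 7. In the TCHX arm, TMM gave 0 in siGL2, mQ and pQ cells, and genes stable at both times gave 7 members in siCTU2 cells, 7 in siGL2 and 9 in pQ cells. The count at 5 h was 2 in siCTU2 cells (3 without extra genes), 6 in siGL2 cells and 7 in pQ cells without extra genes. No low-count filter gave 1 in siGL2 cells, and single replicates left out gave 0 to 5 (siGL2), 0 to 6 (mQ) and 0 to 7 (pQ). Apart from the shares given above, the share of all genes called in these alternatives, 5 h included, is not given. Their counts are thus no result about the members.

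For cycloheximide at 3 h, DESeq2 and no low-count filter each gave 1 in siCTU2 and 1 in mQ cells, and genes stable at both times gave 1 in mQ and 1 in pQ cells. Without extra genes the counts were 1 in siCTU2 and 3 in mQ cells. The 5 h count was 5 in siCTU2 and 1 in pQ cells, and without extra genes 3, 2 and 1 in siCTU2, mQ and pQ cells. The mean of 3 h and 5 h gave 4 in siCTU2 and 3 in siGL2 cells, subtracting the 0 h difference gave 0 in siGL2 and 1 in pQ cells, and single replicates left out gave 0 to 1 in each state. Where the share of all genes called is not given above, these counts too are no result about the members. The TDD count for mQ was 1 with TMM, 1 with each arm by its own 0 h library and 0 to 3 without single replicates. The replicate block changed no other count of members by over 1.5 times. At 0 to 8 counts per library at 3 h, MYC limits how far differences in its decay could be seen.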

Other observations

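Outside the 3 libraries with extra genes, MYCN was at most 0.339 CPM in 67 libraries, but replicate 1 of mQ cells at 3 h held 3.40 CPM in the T arm and 1.02 CPM in the TCHX arm. PTPRC reached at most 0.759 CPM and CD3E at most 0.304 CPM in the 69 other libraries. Of the remaining paralogs, MYCL was at 0 to 1.59 CPM and MLXIPL at 0 to 0.5 CPM.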
